A study of Drosophila melanogaster with 12 samples.

Results

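The 3 control libraries from sucrose-fed flies describe the baseline transcriptome of progenitor cells in the adult Drosophila melanogaster midgut. They were chosen by their sample titles, and they are 3 of the 12 libraries of the series, which also holds flies with a knockdown of trithorax (trx) and flies fed a gut-damaging polymer. All values here come from the 3 control libraries, and no comparison with the other groups was made. The flies carried the progenitor driver with green fluorescent protein, written esgtsGFP, crossed to the stock w1118, and no interfering construct. They were mated females aged 3 to 4 days when they were moved to 29 °C, where they stayed for 7 days. Their feed for the last 48 h was 5% sucrose. Cells with green fluorescence were sorted from the intestine, and the 3′ ends of polyadenylated RNA were sequenced. The labels do not say how many guts went into a sort or whether the libraries came from separate crosses, so the spread between libraries may be partly technical. The sort also puts stem cells and their enteroblast daughters into the same tube.

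Intestinal stem cells renew the midgut lining. A stem cell displays the ligand Delta, and a daughter that receives a strong Notch signal becomes an enteroblast and later an absorptive enterocyte. A daughter with little Notch signal can take the secretory route, turn on the homeodomain factor Prospero and become an enteroendocrine cell, which releases peptide hormones.

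Each deposited value was divided by its library total and multiplied by 1000000, and is given as ppm of that total. Where 3 values are listed, they belong to replicates 1, 2 and 3 in that order, and an error is the SD of the 3 libraries (n = 3). Value totals were 6098301, 6143789 and 6450270, and the scaling visible in the values implies 6985454, 5154185 and 5934011 reads. A gene listed at 0 can have a true level of up to 3 reads, which is 0.429, 0.582 and 0.506 ppm in the 3 libraries, counting error only. A 3′ library reads about the same stretch of every transcript whatever its length, so levels were not divided by length and the order of genes is the order of their read shares.

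Ribosomal protein genes led the library totals. Of 17617 genes in the table, 29 held 25% of the total, 89 held 50%, 373 held 75% and 1560 held 90%. Protein-coding genes took 84.9 ± 0.310% of the total, small nucleolar RNA (snoRNA) genes 9.36 ± 0.460% and other noncoding RNA genes 5.37 ± 0.553%. Reads of a snoRNA gene inside a coding gene cannot be told apart from reads of that coding gene, as described further on. The snoRNA share is therefore not read as a level of snoRNA in the cells. The 10 most abundant genes took 12.5 ± 0.298%, the 30 most abundant 25.7 ± 0.204% and the 100 most abundant 53.3 ± 0.962%. Among the 30 most abundant there were 19 ribosomal protein genes, 6 snoRNA genes, 2 long noncoding RNA genes, 2 translation factors and 1 other coding gene. Among the 100 most abundant there were 69 ribosomal protein genes, 16 snoRNA genes, 4 other noncoding genes, 3 translation factors and 8 other coding genes.

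**Figure D1:**
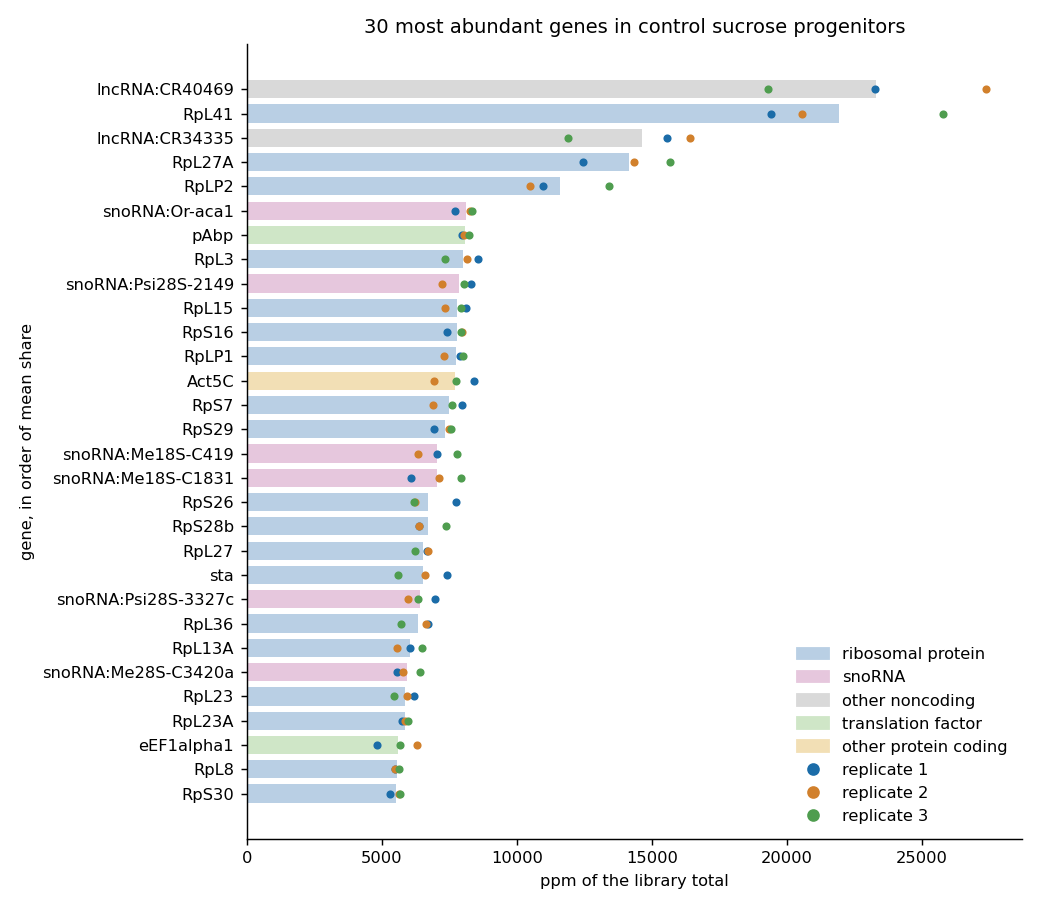
The 30 most abundant genes in order of mean level (horizontal axis, ppm of the library total). Bars are means coloured by the kind of gene and points are the 3 libraries; the leading gene lncRNA:CR40469 spans 19312 to 27358, and the lower ranks lie close together.

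The long noncoding RNA lncRNA:CR40469 was the most abundant gene, with values of 23252, 27358 and 19312. It lies on the plus strand of chromosome X at 122493 to 122706 (dm6 coordinates, as for all positions here), outside any coding gene. The long noncoding RNA with rank 3, lncRNA:CR34335, lay at X 3545750 to 3546110 on the minus strand and had 15565, 16422 and 11899. Both were highest in replicate 2 and lowest in replicate 3. The second of these sits in an intron of DIP-alpha, which encodes a cell surface immunoglobulin protein, and DIP-alpha itself reached 50.6 ± 13.4. No function is given for either noncoding RNA here. With snoRNAs set aside, the highest noncoding gene after these was the microRNA gene mir-308, described with its host gene further on.

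RpL41 was the most abundant coding gene at 19404, 20569 and 25796, followed by RpL27A at 12448, 14341 and 15679.7 and RpLP2, a protein of the ribosomal stalk, at 10958, 10478 and 13409. All 3 were highest in replicate 3. RpL3, RpL15, RpS16 and RpLP1 followed with means between 7731 and 8012. The other 12 ribosomal protein genes of the first 30 were RpS7, RpS29, RpS26, RpS28b, RpL27, sta (the small subunit protein RpSA), RpL36, RpL13A, RpL23, RpL23A, RpL8 and RpS30, with means from 5533 for RpS30 to 7501 for RpS7. Their order is loose, since in 27 of the 29 pairs of neighbouring ranks among the first 30 the ranges of the 3 libraries overlapped.

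The 93 genes whose symbols mark cytosolic ribosomal proteins took 37.7, 38.5 and 38.8% of the libraries, or 38.3 ± 0.559%. This was among the steadiest quantities of the libraries, with a highest-to-lowest ratio of 1.03. Of the 93 genes, 87 were above 0 in all 3 libraries and 83 had a mean of at least 100 ppm. Those at 0 in all 3 were RpL10Aa, RpL37-2, RpS10a and RpS28a. Paralogous copies differed widely in level: RpS28b stood at 6716 ± 584 beside RpS28a at 0, and RpS14a at 4550.2 ± 239 beside its neighbour RpS14b at 613 ± 105. Reads from near-identical copies may have been split or shared by the counting, so levels of single copies are uncertain.

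The 18 genes of a translation factor list summed to 26480.3, 29751 and 28464, and 14 of them had means of at least 100. The leading member was pAbp, the protein that binds poly(A) tails, with 7961, 8052 and 8209. The elongation factor eEF1alpha1, which brings aminoacyl-tRNA to the ribosome, had 4831, 6314 and 5654 and was lowest in replicate 1. The helicase eIF4A had 3583, 3979.6 and 3232. The ribosome translocation factor eEF2 and the peptide-bond helper eEF5 had means of 2703 ± 312 and 2452 ± 217. The list was lowest in replicate 1 and highest in replicate 2, with a ratio of 1.12.

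SnoRNAs guide chemical modification of ribosomal RNA and are mostly cut out of the introns of other genes. Of 269 snoRNA genes, 205 were above 0 in all 3 libraries and 23 were at 0 in all 3. The snoRNA total was 9.05, 9.15 and 9.89% of the libraries. Nearly all of it came from 32 genes with a mean of at least 100 ppm, which took 9.19 ± 0.469%. Every one of the 32 lay inside a coding gene on the same strand, 31 of them in introns and 1 over an exon, and 29 lay in ribosomal protein genes.

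Several of these snoRNA genes had almost the same level as the gene around them. snoRNA:Or-aca1 read 7705, 8274 and 8323 beside its host RpS16 with 7403, 7978 and 7936. snoRNA:Psi28S-2149 read 8293, 7215 and 8032 beside RpS7 with 7985, 6904 and 7615. The members of each pair were lowest in the same library, and the ratios of snoRNA to host mean were 1.04 and 1.05. For snoRNA:Me18S-C419 in RpL15 the ratio was 0.905, for snoRNA:Psi28S-3327c in RpS4 it was 1.19 and for snoRNA:Me18S-C1831 in RpL27A it was 0.498. Over the 32 genes the median ratio was 0.660, 13 had a ratio between 0.8 and 1.25, and 13 had a ratio above 1. One gene stood far above its host, snoRNA:nop5-x16-a at 456, 396 and 367 inside nop5 at 147, 133 and 115, a ratio of 3.09.

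The same closeness appeared outside the snoRNAs. The microRNA gene mir-308 read 4860.4, 4382 and 6760.2, and its host RpS23 read 5035, 4376 and 6399, a ratio of 1.01. The noncoding gene lncRNA:CR42491 read 2848, 3549.6 and 3555 over an exon of RpL22, which read 4199, 4975 and 5312. Last of the 5 highest noncoding genes other than snoRNAs, asRNA:CR44960 on the minus strand of X had 2040.2, 1585 and 1174 with no coding gene around it. No source used here gives the counting rule or its use of strand, so reads from a host gene and from the small RNA gene inside it cannot be told apart. Without snoRNA and microRNA genes inside coding genes, the ribosomal protein share was 42.6 ± 0.851% in place of 38.3%, an alternative added after the data were seen.

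**Figure D2:**
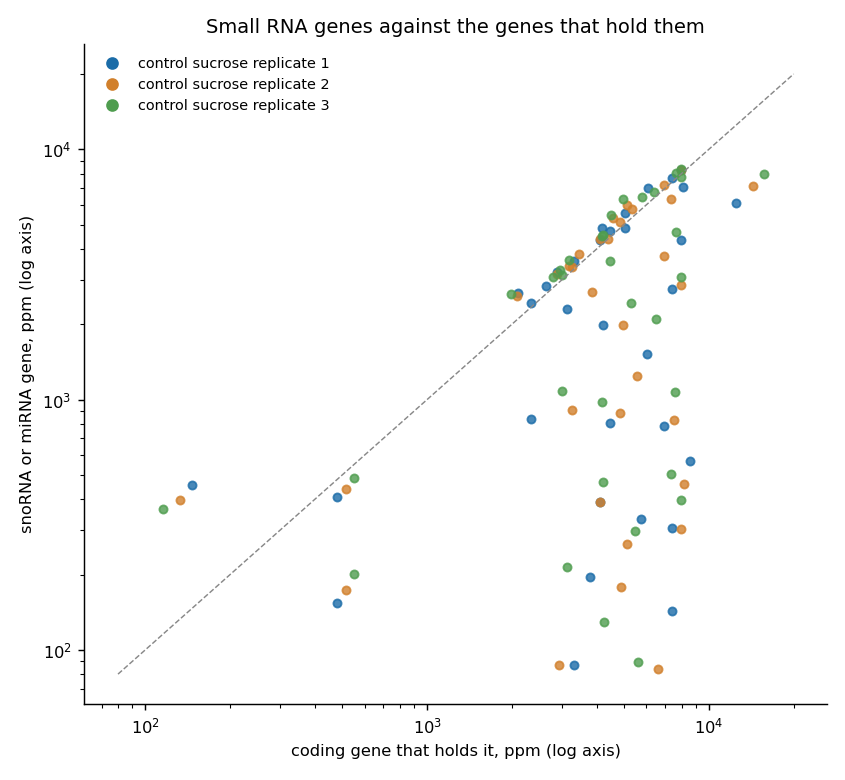
Levels of snoRNA and microRNA genes of at least 100 ppm (vertical axis, log scale) against the coding gene that holds them on the same strand (horizontal axis, log scale), both in ppm, 1 point per library. The dashed line marks equal levels; 13 of the 32 snoRNA genes have ratios between 0.8 and 1.25, and many others lie well under the line.

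Outside translation, the most abundant coding gene was Act5C, a cytoplasmic actin, with 8418, 6934 and 7751. The next coding genes were picked after their values were seen, as the highest that are neither ribosomal proteins nor translation factors. aqz had 4521, 4764 and 4036 and the RNA-binding hnRNP sqd had 4075, 3680.5 and 3746. The constitutive chaperone Hsc70-4 had 3081, 4308 and 3299 and the ribosome-bound scaffold Rack1 had 3362, 3711 and 3263. After these came the transcriptional regulator bun of the TSC22 family at 3271 ± 328, the bZIP factor Xrp1 at 2189, 3254 and 3107 and the actin-binding protein cib at 2798 ± 156. They were followed by bic, a subunit of the nascent polypeptide-associated complex, at 2746 ± 98.3, the mRNA-binding protein Imp at 2448 ± 318, the hnRNP Hrb27C at 2307 ± 167 and the cyclophilin Cyp1 at 2246 ± 163, with Myc, described further on, between Imp and Hrb27C. Lower down were the transcription factors lola at 1384 ± 182 and Eip93F, which is induced by ecdysone, at 1346 ± 119. In the cytoskeleton list, the tubulins alphaTub84B and betaTub56D had means of 2188 ± 427 and 1738 ± 235, the tropomyosin Tm1 691 ± 54.3 and the profilin chic 654 ± 91.7. The 9 measured members of that list summed to 15674, 13221 and 14334.

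The 11 stem cell genes analysed were above 0 in all 3 libraries and summed to 2779.9, 2329.7 and 2478 ppm, or 2529 ± 229. Whether these genes are particular to stem cells was not tested. Their median was 141.7 ppm, beside 0.645 over all 17617 genes and 11.9 over the 9046 genes above 0 in all 3 libraries. The marker escargot was not analysed here. In a sorted bulk sample, fewer cells of a type and less RNA per cell cannot be told apart, and this holds for every cell type list described here.

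headcase, listed as heca and known as a progenitor maintenance gene, made up 60.3% of the stem cell list with 1583, 1388 and 1600.4, rank 133 of all genes. Delta, the Notch ligand that marks stem cells, had 279.6, 92.5 and 144. Replicate 1 stood 3.02 times above replicate 2. The transcription factor Sox21a, which drives progenitor differentiation, had 249, 166 and 149 and was also highest in replicate 1. The division adaptor insc had 148, 201 and 143, highest in replicate 2. The zinc finger homeodomain factor zfh2 had 191, 138 and 127, and the homeodomain factor NK7.1 had 128, 143 and 153. These 2 factors were ordered oppositely over the libraries. The scaffold mira, which carries cell fate determinants in dividing neural stem cells, had 114, 93.1 and 55.0 and the Sox factor Sox100B had 70.7, 89.7 and 84.3. The Cdc25 phosphatase stg had 12.95, 4.39 and 7.91, the zinc finger factor sna 0.984, 7.32 and 7.44 and the Notch regulator spdo 2.13, 6.35 and 6.05. stg was highest in replicate 1, where sna and spdo were lowest.

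The enteroblast list summed to 2092, 1988 and 1941, with 9 of the 10 members above 0 in all 3 libraries and a ratio of 1.08. It includes receptors and signal transducers, and whether its members are particular to enteroblasts was not tested. peb, the zinc finger factor also known as hindsight, made up 53.4% of the list with 1268, 932 and 1014. klu, the zinc finger factor Klumpfuss that keeps enteroblasts on the absorptive route, had 180.2, 301 and 237 and was highest in replicate 2. The BTB repressor ttk had 176, 200.2 and 241 and the signal transducer Stat92E had 183, 198 and 203. Stat92E was among the steadier regulators, whereas E-cadherin, listed as shg, had 47.2, 112 and 58.0 with replicate 2 above the other 2 libraries. The Notch receptor N had 107, 119 and 86.5, and the growth factor receptor Egfr had 73.6, 71.5 and 63.4. The cytokine receptor dome had 46.6, 40.4 and 28.5 and the Notch effector Su(H) 9.02, 12.5 and 9.46. zfh1, a zinc finger homeodomain factor, was near the detection limit at 0.984, 0.326 and 0.

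Notch target genes of the Enhancer of split cluster gave the most even sum of the cell type lists, at 1148, 1125 and 1122, a ratio of 1.02. 3 of the 11 genes made up 98.3% of it. The repressor E(spl)mbeta-HLH had 562, 615 and 587, the repressor E(spl)m3-HLH had 262, 262 and 268, and the Bearded family gene E(spl)malpha-BFM had 306, 229.8 and 244. The other 8 members did not pass 10.5 ppm in any library. Of these, E(spl)mgamma-HLH had 10.5, 9.28 and 4.65, E(spl)m7-HLH 4.43, 3.09 and 9.46 and E(spl)m6-BFM 2.46, 3.74 and 5.27. E(spl)m8-HLH reached 1.86 at most, and E(spl)m2-BFM, E(spl)mdelta-HLH, E(spl)m4-BFM and E(spl)m5-HLH did not pass 0.651 in any library. The Notch pathway list itself, which also holds the ligand and receptor, summed to 1337, 1313 and 1276, led by kuz, the protease that cleaves the receptor, with 523, 673 and 597. The corepressor gro was even at 159, 162 and 161, the Notch pathway antagonist H had 64.5 ± 11.2, and the ligand Ser was at 0 in all 3 libraries.

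Enteroendocrine fate genes were low and hormone genes were high in the same libraries. The 12 fate genes summed to 158, 125 and 99.996, and 3 of them, pros, Ptx1 and tap, made up 90.3% of the list. pros, which encodes Prospero, had 83.3, 65.4 and 46.5. The homeodomain factor Ptx1 had 35.7, 28.6 and 25.1 and the bHLH factor tap had 23.0, 21.0 and 17.4. All 3 were highest in replicate 1 and lowest in replicate 3. The Iroquois factor mirr had 14.1, 6.67 and 7.13, the secretory bHLH factor dimm 0.820, 0.977 and 3.41, the proneural factor sc 0.656, 1.95 and 0.155, and the adaptor phyl 0.328, 0.163 and 0.310. hbn and nerfin-1 were each above 0 in 1 library and under the 3-read limit there. The proneural genes ase and l(1)sc and the paired box gene Poxn were at 0 in all 3 libraries.

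The 12 peptide hormone genes summed to 3734, 3521 and 2525, with a mean of 3260.4 ± 646. 3 of them, NPF, Orcokinin and AstC, made up 87.9% of this. NPF, neuropeptide F, had 1877, 1656 and 1161 and ranked 131 among all genes. Orcokinin had 768, 916 and 549.7 and Allatostatin C, listed as AstC, had 668, 572 and 426. Each of these was lowest in replicate 3. The ion transport peptide ITP had 186, 146 and 182 and tachykinin, listed as Tk, had 127, 129 and 74.9. CCHa1 had 43.3, 33.5 and 53.3, AstA 27.7, 23.1 and 45.1 and CCHa2 30.5, 26.5 and 22.5. Unlike the 3 leading hormones, CCHa1 and AstA were highest in replicate 3. Dh31 had 6.72, 18.4 and 9.61, and CCAP, Mip and sNPF did not pass 0.775 in any library, with CCAP in replicate 3 the only one of these values above the 3-read limit.

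Genes for storing and releasing hormones stood with them. The 18 measured secretory granule genes summed to 1925, 1546 and 1291, with 17 above 0 in all 3 libraries. The dense-core vesicle protein IA-2 had 957, 706 and 559 and the carboxypeptidase svr had 387, 324 and 263. The membrane fusion protein Syx1A had 182, 162 and 181, the peptide amidating enzyme Phm 149, 131 and 111 and 7B2, the helper of a prohormone convertase, 52.0, 34.0 and 26.5. Of the 17 genes above 0 in all 3 libraries, 14 were lowest in replicate 3, where 38.2% of all 9046 such genes were lowest. The hormone and granule sums thus had the same order of libraries, replicate 1 first and replicate 3 last, with ratios of 1.48 and 1.49. The labels call the sorted cells progenitors, and how much of this RNA came from differentiated enteroendocrine cells in the sort was not tested.

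Structural and regulatory genes of enterocytes were present at moderate levels. The 15 members summed to 1007, 814 and 914, with 14 above 0 in all 3 libraries and a median member at 21.1. The junction protein mesh had 429, 229.8 and 295 and the brush border myosin Myo31DF had 183, 189 and 215. The gut transcription factor GATAe had 159.6, 130.1 and 106, the junction protein cora 87.2, 97.2 and 123 and mex1, a marker of the mature enterocyte, 22.5, 50.3 and 52.9. These genes did not share an order: mesh and GATAe were highest in replicate 1, and Myo31DF, cora and mex1 in replicate 3.

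Digestive enzyme genes behaved differently and gave the widest spread of the cell type lists. The 41 genes summed to 2423, 1555 and 429.9, a ratio of 5.64 between replicates 1 and 3. The trypsin alphaTry had 768, 425 and 99.2 and the trypsin betaTry had 287, 231 and 44.3. The Jonah protease Jon65Aiv had 229, 125 and 48.4, the protease yip7 166, 78.6 and 29.1 and the amylase Amy-p 126, 90.7 and 32.4. All 5 were highest in replicate 1 and lowest in replicate 3. Of the 35 genes above 0 in all 3 libraries, 31 were lowest in replicate 3, beside 38.2% of all genes. Jon66Cii and Lip3 were at 0 in all 3. Digestive enzymes are products of mature enterocytes. The sum of the enterocyte list had a ratio of 1.24 and was lowest in replicate 2. Of its 14 members above 0 in all 3 libraries, 5 were lowest in replicate 1, 4 in replicate 2 and 5 in replicate 3. The low members Npc2d, Npc2f and Npc1b, named after their values were seen, were lowest in replicate 3, as the enzymes were. These 3 do not stand for the list. Npc2d, of a sterol-binding protein family, had 5.90, 3.91 and 1.09, Npc2f of the same family had 7.38, 5.70 and 3.72 and the sterol uptake gene Npc1b had 1.64, 1.63 and 0. The part of other cells in the sorted samples was not tested.

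**Figure D3:**
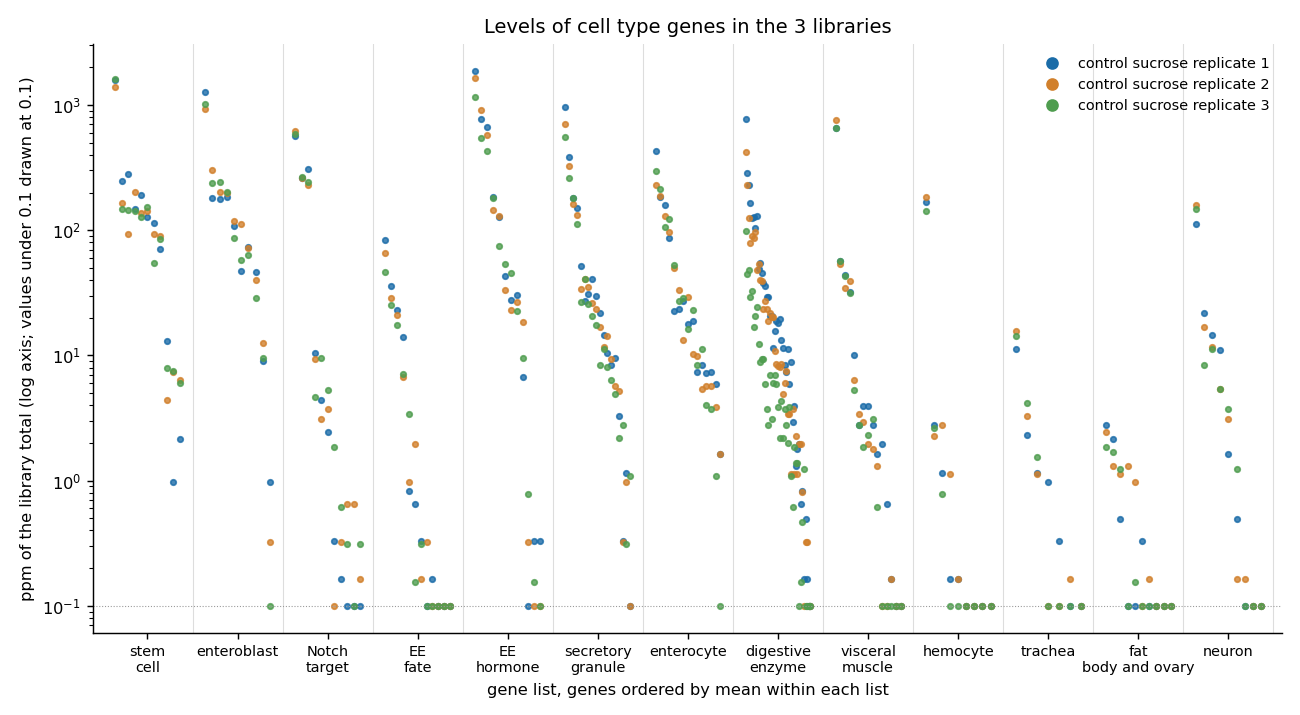
Level of every member of 13 cell type lists (vertical axis, ppm of the library total, log scale) in the 3 libraries, with genes ordered by mean within each list; EE stands for enteroendocrine, and values under 0.1 are drawn at 0.1. Single genes differ between libraries, among them Delta with a ratio of 3.02 in the stem cell list, and replicate 3 lies under the others for most digestive enzymes.

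In the marker lists for cells around the gut lining, a few genes held most of each sum. Members at 0 in all 3 libraries numbered 2 of 15 for muscle, 4 of 9 for hemocyte and 1 of 7 for trachea. They numbered 3 of 10 for fat body and ovary and 2 of 9 for neuron. Of all genes 33.6% were at 0, and of protein-coding genes 26.4%, and only the hemocyte list was above both. Median members were at 2.74, 0.109, 0.328, 0.243 and 2.82 ppm in the same order, beside 0.645 over all genes. The visceral muscle list summed to 819, 898 and 808, but Tm1, a tropomyosin that many cells use, made up 82.1% of it. Tm1, Mef2, Zasp52 and how had means of 691 ± 54.3, 55.6 ± 1.99, 40.4 ± 5.26 and 34.2 ± 4.48. The other 11 muscle genes, a split made after seeing the values, summed to 28.0, 17.9 and 16.0, with the myosin light chain Mlc1 at 10.2, 6.35 and 5.27 and wupA and bt at 0. The hemocyte list summed to 172, 189.8 and 144, of which the scavenger receptor crq was 97.2% with 167, 183 and 141. Without crq the blood cell sum was 4.26, 6.35 and 3.41; Sr-CI reached 2.57 ± 0.261, srp 1.56 ± 1.06, Ppn 0.434 ± 0.616 and Hml 0.109 ± 0.0943, and NimC1, eater, Pxn and He were at 0 in all 3 libraries.

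Tracheal genes summed to 15.9, 20.3 and 20.0. Their leading member was the growth factor receptor btl at 11.2, 15.8 and 14.3, followed by serp at 3.25 ± 0.945, dysf at 1.28 ± 0.235, pio at 0.328 ± 0.568 and dpy at 0.109 ± 0.189, with verm at 0. Fat body and ovary genes summed to 5.74, 7.32 and 4.96, none above 2.79 in any library. The lipid carrier apolpp reached 2.36 ± 0.469, the yolk proteins Yp3 and Yp2 1.71 ± 0.415 and 0.957 ± 0.406, Fbp1 0.434 ± 0.752 and Lsp1beta 0.377 ± 0.525, and Lsp2, osk and nanos were at 0. Neuronal genes summed to 161, 195 and 178, and the RNA-binding protein elav made up 78.1% with 112, 158 and 148. Of the others, the vesicle protein Syt1 had 21.8, 16.8 and 8.37, nSyb 14.6, 11.7 and 11.3, brp 11.0, 5.37 and 5.43 and fne 1.64, 3.09 and 3.72, and the transmitter transporters VGlut and VAChT were at 0. Syt1 and nSyb are also members of the secretory granule list.

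Few sex-specific transcripts could be checked, and Y-linked genes were not analysed here. The noncoding RNAs lncRNA:roX1 and lncRNA:roX2, which males use for dosage compensation, did not pass 0.651 ppm in any library. The female master switch gene Sxl had 264, 352 and 277, and msl-2, whose protein males use, 2.95, 3.26 and 2.17. Values per gene do not separate splice forms, so the levels of Sxl and msl-2 were not read as a check of sex. trx, the target of the knockdown in the other flies of the study, had 183, 198 and 204 here.

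A feedback inhibitor was the highest member of both the EGFR and the JAK/STAT list. In the 18-gene EGFR and MAPK list, all members were above 0 in all 3 libraries and the sum was 2472, 2242 and 1841. The feedback inhibitor sty made up 53.1% of it with 1397, 1164 and 917. The ubiquitin ligase Cbl, the adaptor drk, the ligand spi and S, which carries the ligand for processing, followed with means of 238 ± 43.9, 143 ± 6.91, 123 ± 13.8 and 97.6 ± 5.57. sty and Cbl were highest in replicate 1 and lowest in replicate 3. In the JAK/STAT list, the feedback inhibitor Socs36E had 761, 337 and 399.5 and made up most of a sum of 1142, 652 and 702. The kinase hop had 37.2 ± 9.96. The ligand upd3 had 43.3, 21.8 and 25.3 and the ligand upd2 54.6, 20.0 and 15.0. Socs36E, upd2 and upd3 were each highest in replicate 1, and upd2 differed 3.63 times between replicates 1 and 3.

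The insulin and TOR list summed to 4991, 5578 and 4622. The growth regulator Myc had 2608, 2770.3 and 1898 and was lowest in replicate 3. Thor, the translation repressor 4E-BP, had 986, 843 and 962, and the insulin receptor InR had 519, 924 and 929. InR in replicate 1 stood under the other 2 libraries. The kinases S6k and Akt had means of 381 ± 35.3 and 332 ± 60.8. In the Wnt list, which summed to 1049.6, 1036 and 1214, the kinase sgg had 533 ± 64.5, beta-catenin, listed as arm, 264 ± 26.4, the receptor fz2 133 ± 19.9, the transcription factor pan 60.8 ± 3.72 and the scaffold Axn 30.3 ± 6.05, and the ligand wg was at 0. The Hippo list summed to 1174, 1125 and 1266, with the transcription factor sd at 434 ± 46.4, the scaffold kibra at 353 ± 34.6, the apoptosis inhibitor Diap1 at 228 ± 40.5 and the kinase wts and its partner mats at 47.8 ± 3.22 and 36.7 ± 2.29. The BMP and activin list summed to 729, 758 and 699, with the signal transducers Smox and Mad at 338 ± 13.4 and 179.7 ± 6.13, the receptor babo at 87.1 ± 9.02, the inhibitor Dad at 39.8 ± 5.27 and the ligand gbb at 24.5 ± 3.64. Of the Wnt, Hippo and BMP lists, none had a highest-to-lowest ratio above 1.17.

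Cell cycle genes were low but detected throughout. All 23 mitosis genes were above 0 in all 3 libraries, yet their sum was only 202, 119 and 139 and 3 had means of at least 10. The checkpoint kinase Bub1 had 40.2, 42.6 and 42.2, and the cyclin CycA had 31.8, 16.0 and 14.0. Incenp, the Aurora kinase aurB and stg followed at 10.3 ± 3.73, 8.45 ± 4.19 and 8.42 ± 4.30. Of the 23 genes, 18 were highest in replicate 1, beside 40.4% of the 9046 genes above 0 in all 3 libraries, and 16 were lowest in replicate 2, beside 32.2%. The 24 measured S phase genes summed to 546, 514 and 518, of which the transcription factor E2f1 was 57.0% with 276, 325 and 299.7. Its partner Dp had 29.9 ± 3.43, the replication clamp PCNA 43.3, 19.5 and 20.0, the licensing inhibitor geminin 25.5 ± 0.763 and RPA1 20.3 ± 3.43. PCNA was highest in replicate 1, and 13 of the 24 genes were.

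Sums of the Trithorax and COMPASS list and of the Polycomb list were among the most even, with ratios of 1.06 and 1.03. Single members such as Su(z)2 spread more. All 15 Trithorax and COMPASS genes were above 0 in all 3 libraries and summed to 641, 606 and 606. trx itself led the list, followed by osa, a subunit of the Brahma remodelling complex, at 122, 122 and 123. ash2, Mnn1 and wds, subunits of methyltransferase complexes, had means of 99.3 ± 17.3, 42.5 ± 9.28 and 35.1 ± 7.88. All 15 Polycomb genes were above 0 in all 3 libraries and summed to 378, 378 and 389, with Pcl at 80.6 ± 9.73, Psc at 60.5 ± 3.89, Su(z)2 at 49.9 ± 16.2, Jarid2 at 28.7 ± 3.91 and the methyltransferase E(z) at 22.7 ± 2.79. Of the 8 Hox genes, lab, the Hox gene of the middle midgut, had 7.22, 5.70 and 4.03. Abd-B and Scr did not pass 0.620 in any library, and pb, Dfd, Antp, Ubx and abd-A were at 0 in all 3.

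Sums of the gene lists for energy and protein turnover were lowest in replicate 2. Nuclear genes of oxidative phosphorylation summed to 11628, 9166 and 11769, led by ATPsynC at 1461, 1196 and 1709, COX6B at 869, 636 and 871 and ATPsynbeta at 516, 449 and 517. COX7C and COX4 had means of 382 ± 82.5 and 354 ± 52.3. Of the 67 members above 0 in all 3 libraries, 59 were lowest in replicate 2, beside 32.2% of all genes. The 72 mitochondrial ribosomal protein genes summed to 2421, 1742 and 2059, with mRpL55 at 196 ± 5.11, mRpL33 at 95.6 ± 10.9, mRpL12 at 74.5 ± 19.9, mRpS9 at 72.3 ± 14.3 and mRpL39 at 61.4 ± 7.01. Of the 72, 50 were lowest in replicate 2. In replicate 1, 55 were highest, beside 40.4% of the 9046 genes above 0 in all 3 libraries. Proteasome genes summed to 2089.8, 1626 and 1853, with Prosalpha3 at 124 ± 20.0, Prosalpha6 at 117 ± 22.8, Prosbeta6 at 102 ± 14.0, Prosbeta3 at 99.6 ± 15.2 and Prosbeta1 at 96.0 ± 20.8, and 25 of their 35 detected members were lowest in replicate 2. Subunits of the vacuolar proton pump summed to 3612, 3186 and 3252. Vha16-1, the membrane ring subunit, made up 47.2% of this with 1727, 1553 and 1463, and Vha13, Vha68-2, Vha55 and Vha26 had means of 245 ± 39.1, 228 ± 36.7, 202 ± 25.9 and 199.7 ± 2.87.

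Chaperone genes also set replicate 2 apart. The 4 small heat shock genes Hsp22, Hsp23, Hsp26 and Hsp27, grouped after their values were seen, summed to 5331, 1595 and 4213, a ratio of 3.34. Hsp27 had 2084, 543 and 1872, Hsp23 1731, 594 and 1289, Hsp26 1072, 261 and 657 and Hsp22 445, 198 and 394. All 4 were highest in replicate 1 and lowest in replicate 2. Hsp22 shares its place with the gene CG4456, which read 1139, 499.7 and 959.8, so reads of these 2 overlapping genes cannot be told apart. The 17-gene chaperone list summed to 12470.5, 9681 and 11335. In it, Hsc70-4 and Hsc70-3, the constitutive chaperones of the cytosol and the endoplasmic reticulum, were highest in replicate 2, Hsc70-3 with 944, 1419 and 1061. Hsp83 had 1540.3, 935 and 1302, lowest in replicate 2. The sum for the small heat shock genes without replicate 2 was 0.477% of the total, beside 0.371% with it.

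Stress and detoxification genes summed to 3474, 4075 and 3819, with 16 of 17 above 0 in all 3 libraries. The ferritin subunits Fer1HCH and Fer2LCH, which store iron, had 601, 728 and 739 and 389, 414 and 464. crc, the ATF4 transcription factor of the stress response, had 573, 823 and 601, and the glutathione transferase GstD1 had 577, 678 and 652. crc and the unfolded protein response factor Xbp1, with 229.7, 347 and 286, were both highest in replicate 2. Immune genes summed to 748, 1118 and 599. pirk, an inhibitor of the IMD pathway, had 219, 549 and 231, and PGRP-LB, an enzyme that degrades peptidoglycan, had 43.9, 124 and 55.2. Both were highest in replicate 2. The NF-kappaB factor Rel had 295, 276 and 171, the receptors PGRP-LC and PGRP-LE had means of 84.2 ± 21.4 and 36.4 ± 6.14, and the antimicrobial peptide genes AttA, AttC, DptB and CecA1 were at 0 in all 3 libraries.

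Of the 17617 genes, 9046 were above 0 in all 3 libraries, 1107 in 2, 1539 in 1 and 5925, or 33.6%, in none. Protein-coding genes were at 0 in all 3 in 26.4% of cases (3658 of 13842) and noncoding RNA genes in 69.0% (1885 of 2731). The 2646 genes seen in 1 or 2 libraries were low, with a median highest value of 0.328 ppm. The highest among them was the sex peptide receptor gene SPR, which had 0.328, 8.79 and 0.

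Several gene families used in other tissues were at 0 more often than the 33.6% of all genes and the 26.4% of protein-coding genes. For odour and taste, 46 of 60 odorant receptor genes, 37 of 60 gustatory receptor genes, 51 of 66 ionotropic receptor genes and 37 of 51 odorant binding protein genes were at 0 in all 3 libraries. Cuticle protein genes were at 0 in 72 of 98 cases, Osiris genes in 20 of 23, accessory gland protein genes in 34 of 47 and chorion protein genes in 4 of 9. The opsins, at 0 in 2 of 6 cases, were near the share of all genes and above that of protein-coding genes. For scale, the 60 odorant receptor genes together summed to 6.40, 6.51 and 5.74 and the 60 gustatory receptor genes to 16.9, 14.3 and 18.6 ppm. A few members were above the rest, such as the ionotropic receptor Ir31a at 14.8, 16.4 and 13.02, the odorant binding protein Obp18a at 26.6, 27.2 and 27.8, the cuticle protein Cpr47Ed at 36.6, 23.1 and 23.4 and the accessory gland protein Sfp77F at 10.8, 9.28 and 12.1, named because they led their families.

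Levels over all genes correlated closely between the 3 libraries. Pearson's r of log2 (ppm plus 1) over the 17617 genes, which are not independent replicates, was 0.983 between replicates 1 and 2, 0.980 between 1 and 3 and 0.983 between 2 and 3. The 17617 include 5925 genes at 0 in all 3 libraries, which raise r. Over the 4859 genes with a mean of at least 10 ppm, r was 0.966, 0.958 and 0.965 for the same pairs. Among the 1013 genes with a mean of at least 100 ppm, the median coefficient of variation (CV, the SD over the mean) was 11.5%, and 37 genes (3.65%) had a highest-to-lowest ratio of at least 2. The spread depended on abundance. Genes between 1000 and 10000 ppm had a median CV of 8.27%, those between 100 and 1000 had 12.1%, those between 10 and 100 had 17.8% and those between 1 and 10 had 37.1%. Counting of the implied reads alone would give medians of 0.745%, 3.06%, 8.43% and 22.3% in these 4 classes.

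**Figure D4:**
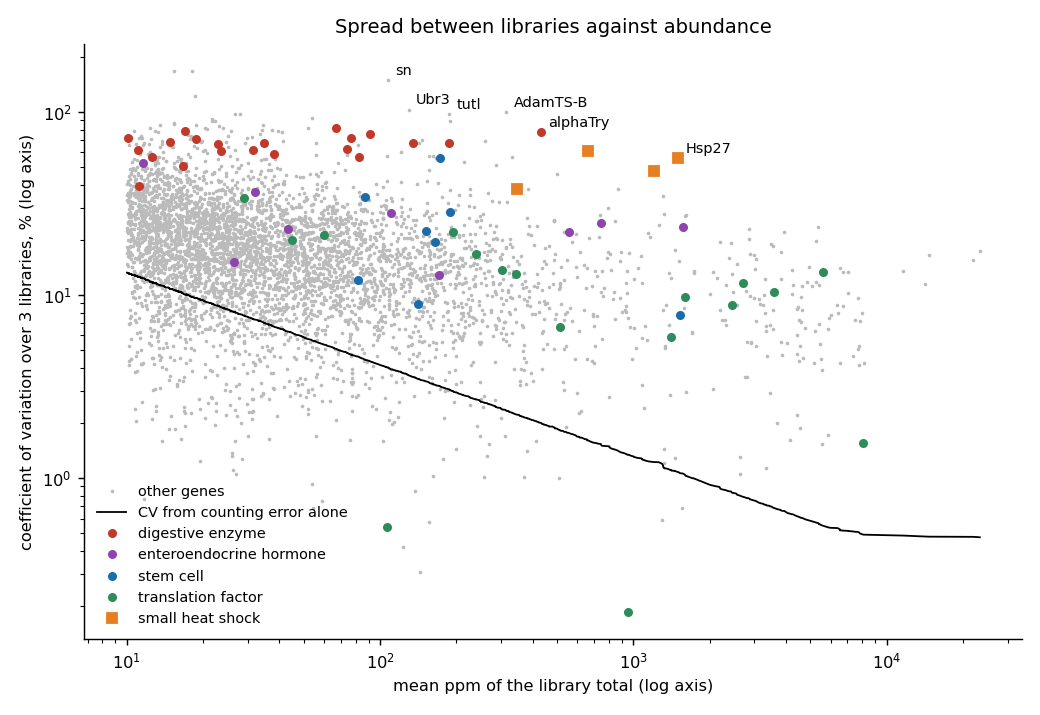
Coefficient of variation over the 3 libraries (vertical axis, %, log scale) against mean level (horizontal axis, ppm, log scale) for genes with a mean of at least 10 ppm; the line is the spread that counting of reads alone would give. Most genes lie above the line, and digestive enzyme and small heat shock genes lie near the top of the cloud at their level.

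The 10 genes of widest spread at a mean of at least 100 ppm included 3 digestive enzyme genes. sn, which encodes the actin-bundling protein fascin, had 25.7, 4.72 and 293, so its mean of 108 ± 161 rests on replicate 3. The ubiquitin ligase gene Ubr3 had 42.1, 64.3 and 284 and was also high in replicate 3. sn and Ubr3 lie 10140 bases apart on chromosome X, and sws, a minus strand gene that covers part of this gap and overlaps sn, had 33.1, 39.2 and 32.9. AdamTS-B, a secreted metalloprotease gene on X, had 315, 628 and 2.33 and was lowest in replicate 3. The immunoglobulin superfamily gene tutl had 394, 118 and 50.4, highest in replicate 1. The genes CG34220, CG14645 and lncRNA:CR32368 had 164, 367 and 34.3, then 304, 411 and 61.2, then 255, 136 and 49.8. All 3 were lowest in replicate 3, as were the enzymes alphaTry, betaTry and Jon65Aiv, which complete the 10. Of the 37 genes with a ratio of at least 2, 21 were highest in replicate 1, 11 in replicate 2 and 5 in replicate 3. Over all 1013 genes of at least 100 ppm, 38.6, 29.1 and 32.3% were highest in replicates 1, 2 and 3. The lowest value of the 37 fell in replicate 1 for 11, in replicate 2 for 13 and in replicate 3 for 13. Delta was among the 37, with the only ratio of at least 2 in the stem cell list among members of at least 100 ppm.

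At the other end, the elongation factor subunit eEF1beta had 952, 956 and 954, a CV of 0.185%. wdp, osa and the cap-binding protein gene eIF4E1 followed with 144 ± 0.442, 123 ± 0.513 and 107 ± 0.576. The helicase gene Ddx56, the adaptor gene 14-3-3zeta, the ornithine decarboxylase antizyme Oda, the deubiquitinase gene Usp2, the RNA-binding protein gene spen and smash completed the 10 of smallest spread, with means of 156 ± 0.898, 1296 ± 7.65, 1556 ± 10.6, 137 ± 1.17, 509 ± 5.06 and 369 ± 3.71. Of the 1013 genes, 43 (4.24%) had a CV under the one counting alone would give. The largest CV of the 10 was 1.01%, for smash, beside a counting median of 3.06% for genes between 100 and 1000 ppm. With 3 libraries, a CV this small does not show that a gene is steadier than others.

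**Figure D5:**
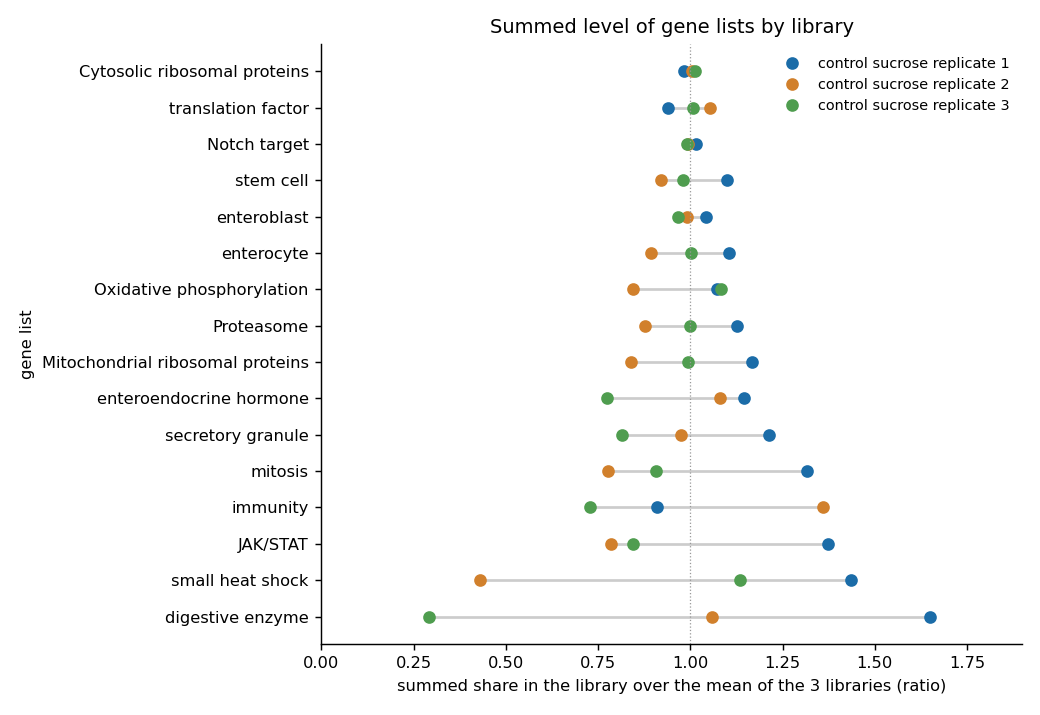
Summed level of 16 gene lists in each library, divided by the mean of the 3 libraries (horizontal axis, ratio). Ribosomal proteins and Notch targets lie within a few hundredths of 1, whereas small heat shock genes are low in replicate 2 and digestive enzymes are low in replicate 3.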

How the data were processed

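The GFP-sorted intestinal cells of 3 control libraries were analysed. The deposited values are whole numbers treated as a score. The numbers of genes at each low value follow the pattern of read counts multiplied by 1 factor per library and rounded before the authors deposited them. A search for the factor was tested on simulated data with 12 known factors over 17617 genes, where it found 6 exactly and missed the others by at most 0.002. It gave factors of 0.873, 1.192 and 1.087, which imply the read numbers in the text. Per the labels' protocols, a 3′ kit was used and fragments were sequenced from 1 end. The submitters' processing notes name the dm6 build and, with no versions or roles, limma, edgeR, DESeq2, DESeq, Bowtie2, HISAT2 and bcl2fastq. No source used here names the counter, its annotation or its use of strand. PCR duplicates were not marked by molecular identifiers in the values used, so limits cover counting error only.

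Values were divided by library totals, as parts per 1000000, ppm (Python 3.11.15, pandas 2.3.3, numpy 2.4.6, matplotlib 3.10.9). Symbols, positions and biotypes came from Ensembl release 115, which named 17520 of 17617 identifiers; the other 97 held between 0.292 and 0.352% of a library. No test was run, since no groups were compared. The 31 gene lists, with 450 entries of which 10 were not in the table, and the rules were chosen with earlier results of these data known. After the values were seen, patterns of 27 gene families and gene aliases were corrected, and the small heat shock group, the reduced muscle and blood cell groups and the other abundant coding genes were added. Named genes are the 30 most abundant genes, the 5 highest noncoding genes, every detected member of the stem cell, enteroblast, Notch target and both enteroendocrine lists, the 5 highest of every other list, the 10 widest and 10 narrowest spreads at a mean of at least 100 ppm, and trx and Ptx1. Of silent members up to 5 are named. The ratio to its host of 1 snoRNA gene among the 30 is not reported here. Leading members of the receptor, cuticle and CG-numbered families are named outside this rule.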

Additional observations from a re-analysis of the deposited data

How the results depend on the processing

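No paired analysis was possible because no groups were compared. Over protein-coding genes alone, the 10 most abundant held 8.43% and the 100 most abundant 47.9%. In the same denominator ribosomal proteins held 45.2%, stem cell genes 0.298%, enteroblast genes 0.236%, Notch targets 0.133% and enterocyte genes 0.107%. Without the 10 most abundant genes in the total, the shares were 46.6% for the 100 most abundant, 36.6% for ribosomal proteins, 0.289% for stem cell genes, 0.229% for enteroblast genes, 0.129% for Notch targets and 0.104% for enterocyte genes. Without small RNA genes inside coding genes, they were 12.2% and 49.8% for the 10 and 100 most abundant, 42.6% for ribosomal proteins, 0.281% for stem cell genes, 0.223% for enteroblast genes, 0.126% for Notch targets and 0.101% for enterocyte genes.

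The median CV was 16.3% at a mean of at least 10 ppm and 8.33% at 1000, and ranged from 8.44 to 9.96% when 1 library was left out. Genes with a ratio of at least 2 numbered 465 and 2 at those limits, and 17 to 23 with 1 library left out, a setting that leaves 1 pair. The lowest correlation was 0.986 with a pseudocount of 10, 0.958 at a mean of at least 10, and 0.980 to 0.983 with 1 library left out. The median CV and the number of such genes were 12.0% and 41 for deposited values as they stand, and 11.7% and 41 after median-of-ratios scaling. Leaving out 1 library moved the digestive enzyme share from 0.147% to between 0.0992 and 0.199% and the small heat shock share from 0.371% to between 0.290 and 0.477%. Between 27 and 29 of the 30 most abundant genes remained when 1 library was left out. Under other detection rules between 7115 and 11692 genes counted as detected. With 3 libraries a mean of a single gene can rest on 1 of them, and between 1 and 10 ppm counting alone would give a median CV of 22.3%, beside the 37.1% measured.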

Other observations

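Genes known by a CG number, 6053 of the 17617, were absent from the 100 most abundant, and made up 41 of the 500 and 121 of the 1000 most abundant. The highest was CG33229 with 1809, 1596 and 1700.2, followed by CG6770 with 935, 1178 and 1815, which was highest in replicate 3, and by CG46309 with 939.6, 809.9 and 1132 ppm of the library totals of replicates 1, 2 and 3. Of 113 histone genes 71 were at 0 in all 3 libraries, beside 33.6% of all genes and 26.4% of protein-coding genes. The replacement variant gene His3.3B alone made up 87.5% of the histone sum with 1663, 1594 and 1571. The libraries were made from polyadenylated RNA, so a 0 here does not show that a histone gene is silent. Copies of the replicating histones are near-identical, so their single values are uncertain.

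Of 84 cytochrome P450 genes 27 were at 0 in all 3 libraries, near the 33.6% of all genes and above the 26.4% of protein-coding genes. The P450 family summed to 626, 569 and 548, led by Cyp305a1 with 197, 131 and 166. Of 35 glutathione transferase genes only 1 was at 0, and that family summed to 1760.5, 2122 and 1872. The eye colour gene w, which is mutated in the stock w1118, had 518, 230.2 and 399, and the source of these reads was not tested. By chromosome, X held 21.2 ± 0.822% of the total, 2L 16.9 ± 0.187%, 2R 22.0 ± 0.730%, 3L 17.1 ± 0.343%, 3R 21.9 ± 0.218% and 4 held 0.654 ± 0.0540% (SD, n = 3).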
